A study of Homo sapiens with 14 samples.

Results

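The genes described here are the D cyclins and the brakes of the first cell cycle checkpoint: CCND1, CCND2, CCND3, CDK4, CDK6, CDKN1B, CDKN1C, CDKN2C, CDKN2D and RB1. They were chosen by name, and every probe set annotated with only that symbol was read, which gave 26 probe sets for the 10 genes. The table holds 19775 genes with a named probe set, of which 9301 reached a log2 level of 4 on at least 2 arrays and could be tested, and 8 of the 10 genes were among these. CCND1 was read by 2 probe sets that stayed below that level on every array, and no probe set carried the name CDKN2C alone, so that gene was not analysed here. MM1S is an established myeloma cell line, and expression was read on 14 arrays, each from cells harvested 6 h after treatment. There were 7 groups of 2 arrays: untreated cells, the beta-2 adrenergic agonist salmeterol at 1 nM, the adenosine receptor agonist CGS-21680 at 12.5 nM, the glucocorticoid dexamethasone at a low dose of 25 nM or a high dose of 2 µM, and either agonist together with the low dose of dexamethasone. All groups share the same line, with no genetic change between them, so all values come from 1 cell line. The question the design addresses is how a cyclic AMP raising agonist and dexamethasone act together.

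D cyclins bind CDK4 or CDK6, and the active kinase phosphorylates the retinoblastoma protein, RB1, which then releases E2F factors and lets the cell enter S phase. CDKN2C and CDKN2D (INK4 proteins) block CDK4 and CDK6 directly, while CDKN1B and CDKN1C (CIP/KIP proteins) bind cyclin-kinase complexes, mainly those with CDK2. Myeloma cells commonly express 1 D cyclin strongly. MM1S carries a translocation that places MAF under an immunoglobulin enhancer, and MAF is known as an activator of CCND2.

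The 9 plasma cell markers examined all passed the expression filter, with SDC1 at a median log2 level of 12.35 and JCHAIN at 15.10. None of 4 T cell markers and none of the 3 monocyte markers with a probe set passed it, 1 of 3 B cell markers did (CIITA at 4.25), and so did 1 of 4 stromal markers (COL1A1 at 7.22), while MS4A1 and CD3E were at the floor value of 2.29 on all 14 arrays. The arrays had similar medians over the tested genes, 7.44 to 7.63 in log2, and replicates of a group correlated at 0.987 to 0.992 across genes. Of 7 tested glucocorticoid response genes, 6 were higher with low dexamethasone (4.66% of all genes were called there), among them FKBP5 by 3.98 and TSC22D3 by 6.03 in log2, and 3 were higher with salmeterol. ZBTB16, also among the 6, reached the level of the expression filter only on arrays with dexamethasone. Of 7 tested cyclic AMP response genes, 3 were higher with salmeterol (5.97% of all genes were called there), PDE4B by 3.37, CREM by 3.01 and RGS2 by 2.23. The other 4 did not pass, with differences from -0.02 for NR4A1 to 0.82 for PDE4D. Because RNA was pooled over all cells of a culture, fewer cells with a transcript and less of it in each cell cannot be told apart.

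Differences were tested with limma in 1 model of all 14 arrays, and a gene was called changed at a Benjamini-Hochberg adjusted p under 0.05 over all 9301 genes. Differences are given in log2 with their standard error, and 1 probe set stands for each gene unless another is named. Against untreated cells, salmeterol changed 1 of the 8 tested genes (5.97% of all genes were called), CGS-21680 changed 1 (0.656% of all), low dexamethasone 2 (4.66%) and high dexamethasone 3 (8.58%). Salmeterol with low dexamethasone changed 6 of the 8, where 24.6% of all genes were called. Of the 6, 3 were higher (10.9% of all genes were) and 3 lower (13.7% of all). The other combination, CGS-21680 with low dexamethasone, changed 2, where 15.8% of all were called. Some plasma cell markers changed in the same comparisons: 3 of the 9 were lower and 1 higher with salmeterol alone (median -0.45), 4 were lower and none higher with salmeterol and low dexamethasone (median -0.50), and likewise 4 with CGS-21680 and low dexamethasone (median -0.45). Against low dexamethasone alone, 5 of the 9 were lower and 1 higher with the salmeterol combination (median -0.87), where 14.4% of all genes were called. Their part in the changes given here was not tested. The 2 genes left uncalled under salmeterol with low dexamethasone were CDKN1B and CDKN2D. The median difference over the 8 genes in that comparison was -0.02, beside -0.000885 over all genes.

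**Figure D1:**
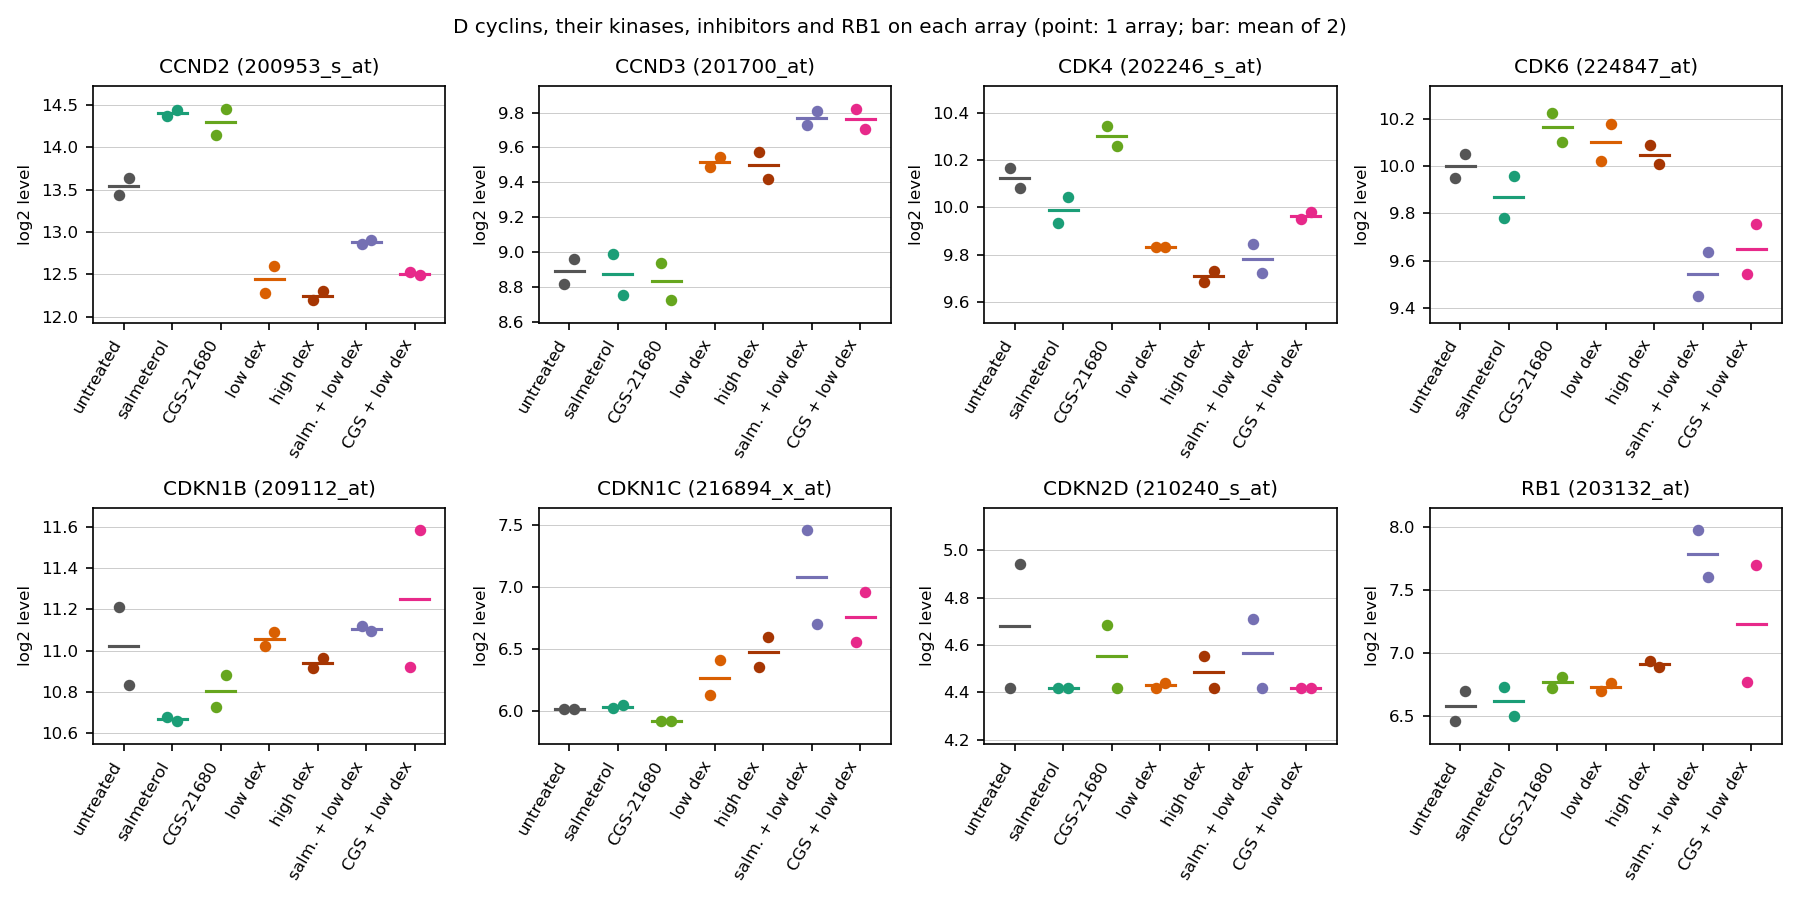
Log2 level on each array (point) and mean of the 2 arrays (bar) for the 8 tested genes in the 7 groups, 1 probe set per gene and a separate y axis per panel. CCND2 was highest with either agonist alone (14.15 to 14.45) and lowest with high dexamethasone (12.20 and 12.30), while CCND3, CDKN1C and RB1 had their highest group means in the combinations.

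CCND2, the D cyclin typical of myelomas with MAF translocations, moved in opposite directions under the agonists and under dexamethasone. Its log2 level on the probe set 200953_s_at was 13.44 and 13.64 in untreated cells, 14.36 and 14.44 with salmeterol, and 14.15 and 14.45 with CGS-21680. With low dexamethasone it was 12.29 and 12.60, with high dexamethasone 12.20 and 12.30. The 2 agonist groups overlapped each other and lay above both untreated arrays, whereas the 2 dexamethasone groups, which also overlapped each other, lay below them. In the combinations it was 12.86 and 12.90 with salmeterol and 12.52 and 12.49 with CGS-21680, below untreated cells in each case. From the highest group mean to the lowest the order was salmeterol, CGS-21680, untreated, salmeterol with low dexamethasone, CGS-21680 with low dexamethasone, low dexamethasone and high dexamethasone, and the neighbours that overlapped were the 2 agonists, CGS-21680 with low dexamethasone and low dexamethasone, and the 2 doses of dexamethasone.

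CCND2 rose by 0.87 ± 0.136 with salmeterol (1.82-fold, limma adjusted p = 0.00705) and by 0.76 ± 0.136 with CGS-21680 (adjusted p = 0.0489). The salmeterol call was lost without untreated replicate 1 (0.77, adjusted p = 0.0576). The CGS-21680 call held without either array of the low dexamethasone group, but was lost without any 1 of the other 12 arrays (adjusted p = 0.0558 to 0.275), with no expression filter (adjusted p = 0.103) and when its 4 probe sets were averaged (1.01, adjusted p = 0.0708). CCND2 fell by 1.09 ± 0.136 with low dexamethasone (adjusted p = 0.00211) and by 1.29 ± 0.136, 2.44-fold, with high dexamethasone (adjusted p = 0.000585), and both calls held without any single array. It also fell with CGS-21680 and low dexamethasone, by 1.03 ± 0.136 (adjusted p = 0.00106). Of its 4 probe sets fitted singly, 1 was called lower there, and the differences ran from -1.20 to 0.02 (15.8% of all genes were called). With salmeterol and low dexamethasone CCND2 fell by 0.65 ± 0.136 (adjusted p = 0.00722). That last call was lost without untreated replicate 2 (-0.55, adjusted p = 0.056) and when its 4 probe sets were averaged (-0.19, adjusted p = 0.578).

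Set against the agonist alone, adding low dexamethasone lowered CCND2 by 1.52 ± 0.136 beside salmeterol (adjusted p = 9.12e-05) and by 1.79 ± 0.136, 3.46-fold, beside CGS-21680 (adjusted p = 6.03e-05). Fitted singly, all 4 probe sets of CCND2 were called lower in both of these comparisons, where 13.9% and 10.8% of all probe sets were called. Set against low dexamethasone alone, adding salmeterol gave a difference of 0.44 ± 0.136 (95% interval 0.13 to 0.75, adjusted p = 0.0619), and adding CGS-21680 gave 0.06 ± 0.136 (interval -0.24 to 0.37). The first of these passed the threshold without either CGS-21680 array (adjusted p = 0.0461 and 0.046), without low dexamethasone replicate 2 (0.60, adjusted p = 0.0472), with a variance trend (adjusted p = 0.0371) and when its probe sets were averaged (0.98, adjusted p = 0.0107). Of the 14 fits with an array left out, those 3 passed, and without low dexamethasone replicate 1 the difference was 0.28 (adjusted p = 0.324). Salmeterol with low dexamethasone left CCND2 higher than high dexamethasone did, by 0.63 ± 0.136 (adjusted p = 0.0142), a call lost without high dexamethasone replicate 1 (adjusted p = 0.0543) or either array of the combination (adjusted p = 0.0652 and 0.0695). When the probe sets were averaged that difference was 1.10 (adjusted p = 0.00654).

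The 4 probe sets of CCND2 did not give 1 answer for the combinations. On 200951_s_at the log2 level was 9.45 and 9.76 in untreated cells, 10.54 and 10.61 with salmeterol and low dexamethasone, 9.55 and 9.69 with CGS-21680 and low dexamethasone, and 8.39 and 8.72 with low dexamethasone. Both salmeterol combination arrays lay above both untreated arrays on this probe set and below them on 200953_s_at. When all probe sets were fitted singly, salmeterol with low dexamethasone against untreated cells was called higher on 200951_s_at (0.97 ± 0.177, adjusted p = 0.00407) and lower on 200953_s_at (-0.65 ± 0.14, adjusted p = 0.0096), in a comparison where 21.1% of probe sets were called. The remaining probe sets, 200952_s_at and 231259_s_at, gave -0.81 and -0.27, neither called. Against low dexamethasone, 200951_s_at rose by 2.02 ± 0.177 with salmeterol (adjusted p = 0.000142) and by 1.07 ± 0.177 with CGS-21680 (adjusted p = 0.0173).

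The gap between these probe sets can be read within an array, as the log2 level of 200951_s_at minus that of 200953_s_at. It was -3.99 and -3.88 in untreated cells, -3.16 and -3.12 with salmeterol, -3.34 and -3.65 with CGS-21680, and -3.90 and -3.88 with low dexamethasone. It was -2.32 and -2.29 with salmeterol and low dexamethasone, -2.97 and -2.80 with CGS-21680 and low dexamethasone, and -4.10 and -4.67 with high dexamethasone. The signals of the 2 probe sets therefore changed unequally, and the smallest gaps were those of the combinations. The log2 difference between the 3' and 5' control probe sets of GAPDH, a sign of RNA and labelling quality, was 0.95 and 0.89 on the salmeterol combination arrays, and 1.11 and 1.31 on the untreated arrays. It was also low on CGS-21680 replicate 1 (0.93), with a gap of -3.34, and lowest on high dexamethasone replicate 2 (0.74), whose gap was the widest. The same difference for ACTB was 1.54 and 1.51 on the salmeterol combination arrays, 1.69 and 1.88 on the untreated arrays, 1.65 on high dexamethasone replicate 2 and lowest on CGS-21680 replicate 1 (1.25). For GAPDH the difference was 1.16 and 0.94 with CGS-21680 and low dexamethasone, 1.14 and 0.99 with low dexamethasone, and 1.09 and 1.04 with salmeterol. It was 1.26 on CGS-21680 replicate 2 and 1.13 on high dexamethasone replicate 1. The part of RNA and labelling quality in the disagreement of the probe sets was not tested.

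**Figure D2:**
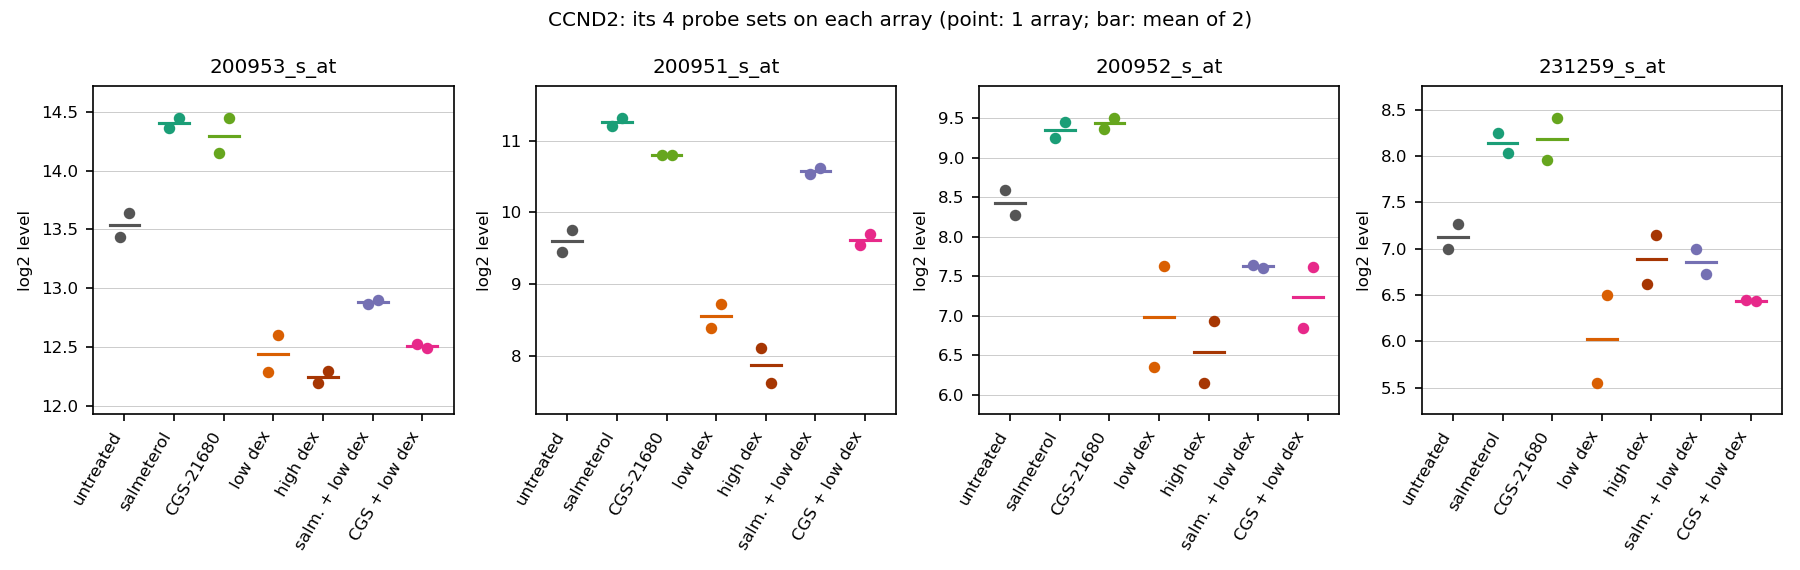
Log2 level of CCND2 on each array (point, with the mean of 2 as a bar) for its 4 probe sets, each with its own y axis. With salmeterol and low dexamethasone the level is above untreated cells on 200951_s_at (10.54 and 10.61 against 9.45 and 9.76) and below them on 200953_s_at (12.86 and 12.90 against 13.44 and 13.64).

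CCND3, a D cyclin widely used by lymphoid cells, rose with dexamethasone at either dose and in both combinations, and was not called with an agonist alone. Its log2 level was 8.82 and 8.96 in untreated cells, 8.99 and 8.76 with salmeterol, 8.94 and 8.73 with CGS-21680, 9.49 and 9.54 with low dexamethasone, and 9.58 and 9.42 with high dexamethasone. In the combinations it was 9.73 and 9.81 with salmeterol and 9.82 and 9.71 with CGS-21680. The 8 arrays with dexamethasone all lay above the 6 without it, and the 4 combination arrays lay above the 4 with dexamethasone alone. The 2 combinations overlapped each other, as did the 2 dexamethasone doses and the 3 groups without dexamethasone.

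The rise of CCND3 was 0.62 ± 0.119 with low dexamethasone (adjusted p = 0.0185), 0.61 ± 0.119 with high dexamethasone (adjusted p = 0.014), 0.88 ± 0.119 with salmeterol and low dexamethasone (1.84-fold, adjusted p = 0.00065) and 0.87 ± 0.119 with CGS-21680 and low dexamethasone (adjusted p = 0.00121). The calls of both combinations held without any single array. That of low dexamethasone was lost without untreated replicate 1 or 2 (adjusted p = 0.127 and 0.0537) or low dexamethasone replicate 1 or 2 (0.0783 and 0.109), and that of high dexamethasone without untreated replicate 1 (0.1) or high dexamethasone replicate 1 (0.05). Beside the agonist alone, low dexamethasone added 0.89 ± 0.119 with salmeterol (adjusted p = 0.000953) and 0.93 ± 0.119 with CGS-21680 (adjusted p = 0.00107). Beside low dexamethasone alone, the difference of 0.25 with either agonist was not called (95% intervals -0.02 to 0.52 in both). The agonists alone gave -0.02 (interval -0.29 to 0.25) and -0.06 (interval -0.33 to 0.21).

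CCND1, the D cyclin that other myelomas overexpress through its own translocation, was at most 3.32 in log2 on any array, read on 208711_s_at with CGS-21680 replicate 2, and its other probe set, 208712_at, was at or near the floor of 2.29 throughout. No test was made for it.

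**Figure D3:**
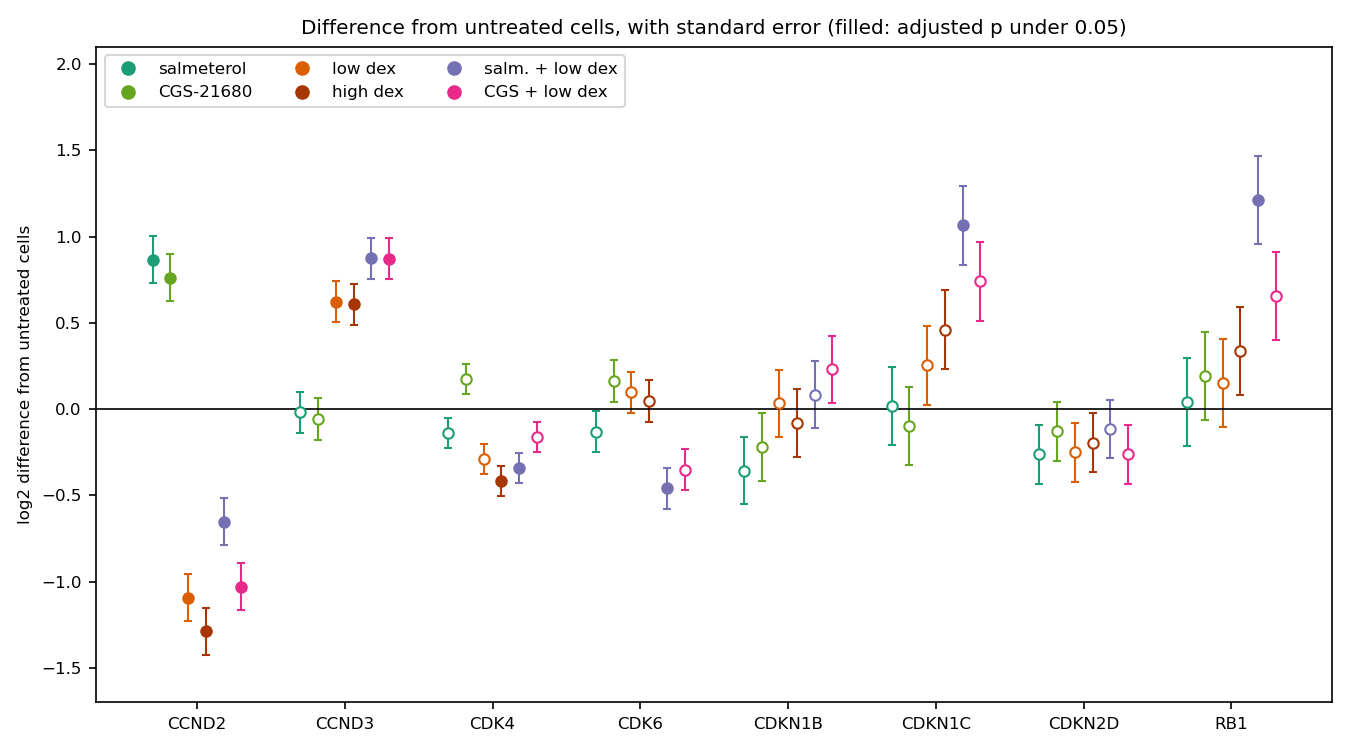
Log2 difference from untreated cells in the 6 treated groups for the 8 tested genes, with its standard error. Filled points passed an adjusted p of 0.05 in limma, and open points did not. CCND2 has filled points on both sides of 0, from 0.87 with salmeterol to -1.29 with high dexamethasone, and 6 of the 8 genes have a filled point for salmeterol with low dexamethasone.

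CDK4, a kinase activated by D cyclins, fell by 1.26- to 1.33-fold in the 3 comparisons that called it. Its log2 level was 10.17 and 10.08 in untreated cells, 9.93 and 10.04 with salmeterol, 10.34 and 10.26 with CGS-21680, 9.83 on both arrays with low dexamethasone, and 9.68 and 9.73 with high dexamethasone. In the combinations it was 9.85 and 9.72 with salmeterol and 9.95 and 9.98 with CGS-21680. All 8 arrays with dexamethasone and both arrays with salmeterol alone lay below both untreated arrays, and both arrays with CGS-21680 alone lay above them. CDK4 fell by 0.42 ± 0.0868 with high dexamethasone (adjusted p = 0.0189), by 0.34 ± 0.0868 with salmeterol and low dexamethasone (adjusted p = 0.0186), and by 0.34 ± 0.0868 when low dexamethasone was added to CGS-21680 (adjusted p = 0.0315). Low dexamethasone alone gave -0.29 ± 0.0868 (interval -0.49 to -0.09, adjusted p = 0.104).

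Each of these CDK4 calls depended on single arrays. The high dexamethasone call was lost without untreated replicate 1 (adjusted p = 0.113), untreated replicate 2 (0.055) or high dexamethasone replicate 2 (0.0584), and that of salmeterol with low dexamethasone without untreated replicate 1 (0.102) or replicate 2 of the combination (0.109). The call beside CGS-21680 was lost without any 1 of its 4 arrays (adjusted p = 0.0628 to 0.125) and after further quantile normalization (-0.31, adjusted p = 0.0773).

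The CDK4 promoter is shown because, of the 12 upstream windows held for these genes, it carried the most copies of the E-box CACGTG, the motif bound by MYC with MAX. CDK4 is a known MYC target, and the levels of MYC are given further on. With high dexamethasone CDK4 was 9.68 and 9.73 and MYC 11.66 and 11.69. With salmeterol and low dexamethasone CDK4 was 9.85 and 9.72 and MYC 9.42 and 9.63. The part of MYC in the levels of CDK4 was not tested. The 250 bases before the start of CDK4 lie at chr12:57752311-57752560 on the minus strand (GRCh38.p14, RefSeq), printed from 5' to 3' with CACGTG in capitals.
CDK4: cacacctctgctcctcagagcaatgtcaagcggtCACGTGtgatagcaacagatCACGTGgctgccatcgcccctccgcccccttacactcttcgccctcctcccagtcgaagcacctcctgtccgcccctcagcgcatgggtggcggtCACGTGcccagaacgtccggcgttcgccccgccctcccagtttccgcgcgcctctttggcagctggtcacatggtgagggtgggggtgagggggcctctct
CACGTG, which reads the same on both strands, occurred 3 times here. Among 35116 windows of 250 bases before RefSeq gene starts, 6.34% held it at least once and 0.0797% held it 3 or more times. Of the 12 windows of these genes 3 held it, that of CDK4 and windows of CDKN2C. The CDK4 window was chosen for its count, so the share with 3 or more is no test of CDK4. The letters of a cyclic AMP response element half-site, TGACG on either strand, were in 4 of the 12 windows (21.2% of all windows). These were the 3 windows of CDKN2C, whose expression was not analysed, and 1 of the 2 of CDK6. Those of a glucocorticoid response element half-site, AGAACA on either strand, were in 1 of the 12, that of RB1 (12.4% of all). The 12 windows belong to CCND3 (3), CDK4 (1), CDK6 (2), CDKN1B (1), CDKN2C (3), CDKN2D (1) and RB1 (1). These are matches of letters only, and binding was not measured.

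CDK6, the second D cyclin kinase, was called lower with salmeterol and low dexamethasone against untreated cells. With CGS-21680 and low dexamethasone it was called lower only against CGS-21680. On 224847_at its log2 level was 9.95 and 10.05 in untreated cells, 9.78 and 9.96 with salmeterol, 10.23 and 10.10 with CGS-21680, 10.02 and 10.18 with low dexamethasone, and 10.09 and 10.01 with high dexamethasone. In the combinations it was 9.45 and 9.64 with salmeterol and 9.54 and 9.76 with CGS-21680. These 4 arrays were the lowest of the 14, and the combinations overlapped each other. CDK6 fell by 0.46 ± 0.119 with salmeterol and low dexamethasone against untreated cells (adjusted p = 0.0204), by 0.56 ± 0.119 against low dexamethasone (adjusted p = 0.0134; 3 of the 8 genes and 14.4% of all genes were called there) and by 0.51 ± 0.119 against high dexamethasone (adjusted p = 0.0215; again 3 of the 8 genes, and 14.6% of all). Adding low dexamethasone to CGS-21680 lowered it by 0.51 ± 0.119 (adjusted p = 0.0204; 5 of the 8 genes and 13.8% of all genes were called there). CGS-21680 with low dexamethasone against untreated cells gave -0.35 ± 0.119 (interval -0.62 to -0.08, adjusted p = 0.0806).

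The CDK6 calls rested on few arrays and on the probe set. Without replicate 1 of the salmeterol combination the adjusted p was 0.131 against untreated cells, 0.0969 against low dexamethasone and 0.135 against high dexamethasone. The first was also lost without untreated replicate 1 or 2 (0.0547 and 0.108), the second without low dexamethasone replicate 2 (0.0932), the third without high dexamethasone replicate 1 or 2 (0.0725 and 0.0609), and the call beside CGS-21680 without CGS-21680 replicate 1 (0.0982) or replicate 1 of its combination (0.115). None of the 4 calls remained when the 6 CDK6 probe sets past the filter were averaged (adjusted p = 0.14 to 0.897), 3 of them dim. Of the brighter ones, 224848_at also fell with salmeterol and low dexamethasone, from 8.99 and 8.98 in untreated cells to 8.08 and 8.18 (-0.85 ± 0.191, adjusted p = 0.0119, probe sets fitted singly), and 224851_at gave -0.51 ± 0.215 (adjusted p = 0.138). The dim probe set 235287_at was above a log2 level of 4 only on replicate 2 of low dexamethasone (4.53), of high dexamethasone (5.31) and of CGS-21680 with low dexamethasone (4.51), and was 2.34 to 3.99 on the other 11 arrays.

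CDKN1B, which encodes the p27 inhibitor, was not called by limma in any of the 17 comparisons, and 2 of them had an unadjusted p under 0.05. Its log2 level was 11.21 and 10.83 in untreated cells, 10.68 and 10.66 with salmeterol, 10.72 and 10.88 with CGS-21680, 11.02 and 11.09 with low dexamethasone, and 10.92 and 10.96 with high dexamethasone. It was 11.12 and 11.09 with salmeterol and low dexamethasone, and 10.92 and 11.58 with CGS-21680 and low dexamethasone. Both salmeterol arrays were the lowest of the 14, and replicate 2 of the CGS-21680 combination stood above every other array. The largest differences from untreated cells were -0.36 with salmeterol (interval -0.80 to 0.09) and 0.23 with CGS-21680 and low dexamethasone (interval -0.21 to 0.67). Adding low dexamethasone to an agonist was called higher in some fits that left out an array. These were beside salmeterol by 0.44 without either array of the CGS-21680 combination (adjusted p = 0.0494 in both), and beside CGS-21680 by 0.78 without replicate 1 of that combination (adjusted p = 0.0186).

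CDKN1C, which encodes the p57 inhibitor, was highest where an agonist and dexamethasone met. On 216894_x_at its log2 level was 6.02 and 6.01 in untreated cells, 6.02 and 6.05 with salmeterol, 5.91 and 5.92 with CGS-21680, 6.13 and 6.41 with low dexamethasone, and 6.36 and 6.60 with high dexamethasone. In the combinations it was 7.46 and 6.70 with salmeterol and 6.55 and 6.96 with CGS-21680. The 2 arrays of the salmeterol combination lay above all 10 arrays of the single treatments and untreated cells and differed from each other (SD 0.531). The CGS-21680 combination overlapped high dexamethasone and the salmeterol combination. CDKN1C rose by 1.07 ± 0.227 with salmeterol and low dexamethasone (2.09-fold, adjusted p = 0.00792). With an array left out, 219534_x_at stood for the gene in 6 of the 14 fits, so these fits were repeated with 216894_x_at kept, a choice made after seeing the data. The call held in all 14 of either kind, and with 216894_x_at kept it was 0.69 (adjusted p = 0.0411) without replicate 1 of the combination. With CGS-21680 and low dexamethasone the difference was 0.74 ± 0.227 (interval 0.23 to 1.25, adjusted p = 0.0561).

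All 4 probe sets of CDKN1C past the filter rose with salmeterol and low dexamethasone when fitted singly, by 1.05 to 1.48. On 213182_x_at the level was 5.44 and 5.63 in untreated cells, 6.79 and 7.24 with salmeterol and low dexamethasone, and 6.40 and 6.67 with CGS-21680 and low dexamethasone, and it rose by 1.48 ± 0.165 (adjusted p = 0.000257) and 1.00 ± 0.165 (adjusted p = 0.00402). When the 4 probe sets were averaged, the CGS-21680 combination was called against untreated cells (0.69, adjusted p = 0.00408) and against low dexamethasone (0.56, adjusted p = 0.038). On 216894_x_at the call against untreated cells was gained with a stricter filter (adjusted p = 0.0395), after further quantile normalization (0.0497) and without either array of the salmeterol combination (0.0151 in both). Without either high dexamethasone array it was gained only where 219534_x_at stood for the gene (0.63, adjusted p = 0.044 in both). The x in these probe set names marks probes that can also match other transcripts, while 213348_at carries no such mark and rose by 1.05 ± 0.177 (adjusted p = 0.00272).

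Adding salmeterol to low dexamethasone raised CDKN1C by 0.81 ± 0.227 (adjusted p = 0.042), and adding low dexamethasone to salmeterol or CGS-21680 raised it by 1.05 ± 0.227 (adjusted p = 0.0128, 4 of the 8 genes and 16.3% of all genes called) and 0.84 ± 0.227 (adjusted p = 0.0379). With 216894_x_at kept and an array left out, the first call held in 3 of 14 fits, the second in 11 and the third in 5. Without replicate 1 of the salmeterol combination the first was 0.44 (adjusted p = 0.23) and the second 0.67 (adjusted p = 0.062), and without replicate 2 of the CGS-21680 combination the third was 0.64 (adjusted p = 0.197). The 3 fits in which the first held left out replicate 2 of the salmeterol combination or either array of the CGS-21680 combination. The second was also lost without either salmeterol array, and the third without any 1 array of the untreated, salmeterol, CGS-21680 or low dexamethasone groups. Where 219534_x_at stood for the gene, the first ran up to 1.52 and was called in all 6 fits. With no expression filter all 3 were lost (0.137, 0.0505 and 0.132). Against low dexamethasone, the other 3 probe sets past the filter rose by 1.12 to 1.27 when fitted singly, where 11.7% of all probe sets were called. Against high dexamethasone, salmeterol with low dexamethasone was not called on 216894_x_at but was when the probe sets were averaged (0.90, adjusted p = 0.00109), and in 7 of the 14 fits with an array left out, in 6 of which 219534_x_at stood for the gene. With 216894_x_at kept it was called in 1 of 14, without replicate 2 of the combination (0.98, adjusted p = 0.0163).

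**Figure D4:**
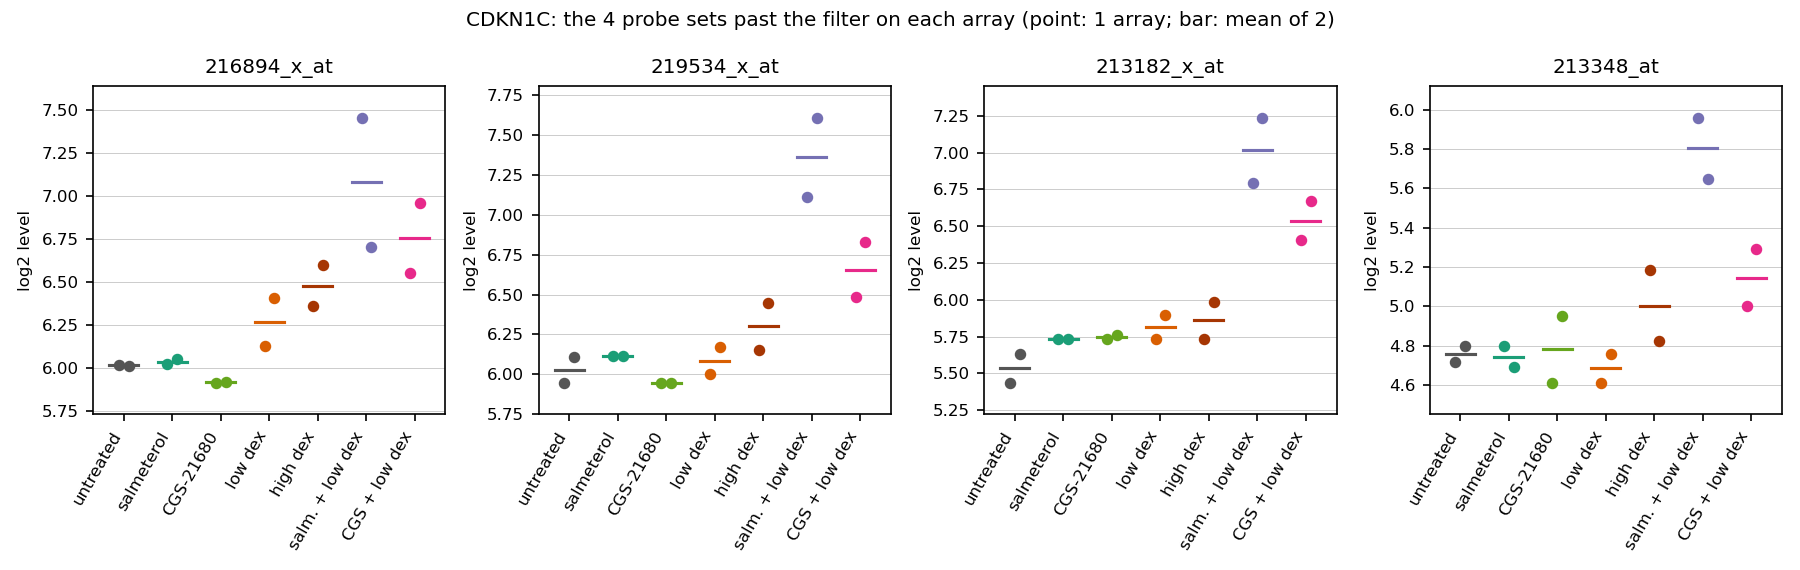
Log2 level of CDKN1C on each array (point, with the mean of 2 as a bar) for the 4 probe sets past the expression filter, each with its own y axis. On all 4 the salmeterol combination has the highest group mean, for example 6.79 and 7.24 on 213182_x_at against 5.44 and 5.63 in untreated cells.

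CDKN2D, an INK4 inhibitor of CDK4 and CDK6, was near the expression filter and did not pass the limma test in any comparison. On 210240_s_at its log2 level ran from 4.42 to 4.94, and the highest array was untreated replicate 2. Its lowest level, 4.42, recurred in every group, none of the 17 comparisons had an unadjusted p under 0.05, and its second probe set did not pass the filter.

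RB1, the substrate that the D cyclin kinases switch off, rose with salmeterol and low dexamethasone. On 203132_at its log2 level was 6.46 and 6.70 in untreated cells, 6.73 and 6.50 with salmeterol, 6.73 and 6.81 with CGS-21680, 6.70 and 6.76 with low dexamethasone, and 6.94 and 6.89 with high dexamethasone. It was 7.97 and 7.61 with salmeterol and low dexamethasone and 6.77 and 7.69 with CGS-21680 and low dexamethasone. Both arrays of the salmeterol combination lay above all 10 arrays outside the combinations, while those of the CGS-21680 combination lay far apart, 1 of them among the single treatments and 1 between the arrays of the salmeterol combination. RB1 rose by 1.21 ± 0.255 with salmeterol and low dexamethasone against untreated cells (2.32-fold, adjusted p = 0.00739), by 1.06 ± 0.255 against low dexamethasone (adjusted p = 0.0227), by 1.17 ± 0.255 against salmeterol (adjusted p = 0.0129) and by 0.88 ± 0.255 against high dexamethasone (adjusted p = 0.0484). CGS-21680 with low dexamethasone gave 0.66 ± 0.255 against untreated cells (interval 0.08 to 1.23, adjusted p = 0.124).

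These RB1 calls depended on the array read as replicate 1 of the salmeterol combination, without which the adjusted p was 0.0601, 0.146, 0.0887 and 0.244 in the same order. The call against untreated cells was also lost without untreated replicate 1 (0.0557), that against low dexamethasone without either of its arrays (0.102 and 0.0927), and that against salmeterol without salmeterol replicate 2 (0.0808). That against high dexamethasone was lost without any 1 of the 12 arrays outside the CGS-21680 combination (adjusted p = 0.0668 to 0.244). With no expression filter the last 3 calls were lost (0.0855, 0.0528 and 0.156). Without replicate 1 of the CGS-21680 combination, that combination was called higher than untreated cells (1.12, adjusted p = 0.00633), low dexamethasone (0.96, adjusted p = 0.0349) and CGS-21680 (0.93, adjusted p = 0.0158). Without its replicate 2 it was instead called lower than the salmeterol combination (-1.02, adjusted p = 0.0457). The second RB1 probe set, 211540_s_at, was at most 2.41 on any array.

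The remaining comparisons called few or none of the 8 genes. CGS-21680 with low dexamethasone against low dexamethasone called none by limma (3.4% of all genes were called), and 1 of the 8 was under an unadjusted p of 0.05. High against low dexamethasone called none of the 8 and 0% of all genes, and none of the 8 had an unadjusted p under 0.05, with differences from -0.19 for CCND2 (interval -0.50 to 0.11) to 0.21 for CDKN1C (interval -0.30 to 0.72). CGS-21680 with low dexamethasone against high dexamethasone also called none (2.72% of all), with 2 under an unadjusted p of 0.05.

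The 2 agonists were given at different concentrations, 1 nM and 12.5 nM, so the values of their groups stand side by side. CGS-21680 against salmeterol called none of the 8 genes (0.495% of all genes), with 2 at an unadjusted p under 0.05, and the largest differences were 0.31 for CDK4 (interval 0.12 to 0.51, adjusted p = 0.167) and 0.29 for CDK6 (interval 0.03 to 0.56). The combinations against each other also called none (1.2% of all), with 1 at an unadjusted p under 0.05. There CCND2 differed by -0.38 (interval -0.68 to -0.07, adjusted p = 0.332) and RB1 by -0.56 (interval -1.13 to 0.02), lower with CGS-21680 in both.

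An interaction asks whether an agonist changed a gene by more or less beside low dexamethasone than alone. None of the 8 genes passed for salmeterol (1.61% of all genes did, and 3 of the 8 were under an unadjusted p of 0.05) or for CGS-21680 (0.151% of all genes, 2 of the 8 under 0.05). The salmeterol interaction was 1.02 ± 0.36 for RB1 (interval 0.21 to 1.83, adjusted p = 0.282) and 0.79 ± 0.321 for CDKN1C (interval 0.07 to 1.51, adjusted p = 0.371). That of CDKN1C passed when its 4 probe sets were averaged (1.03, adjusted p = 0.0158) and without replicate 1 of the salmeterol combination, where 219534_x_at stood for the gene (1.44, adjusted p = 0.0339), but in none of the 14 fits with 216894_x_at kept (adjusted p = 0.0799 to 0.647). Some CDKN1C levels recurred in different groups. On 219534_x_at untreated replicate 1 and both CGS-21680 arrays shared the level 5.95. On 213182_x_at salmeterol replicate 2, low dexamethasone replicate 1 and high dexamethasone replicate 1 shared 5.73. An effect of salmeterol alone might not show at such levels, so the CDKN1C interaction is to be read with care. The CGS-21680 interaction was -0.70 ± 0.193 for CCND2 (interval -1.13 to -0.26, adjusted p = 0.418) and -0.61 ± 0.169 for CDK6 (interval -0.99 to -0.23, adjusted p = 0.406).

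Regulators of the D cyclins were read from a list of 21 genes, of which 17 could be tested. With salmeterol and low dexamethasone against untreated cells 2 were higher and 4 lower, beside 10.9% and 13.7% of all genes, with a median over the 17 of 0.12 against -0.000885 for all genes. MYC, a growth-promoting transcription factor, was 12.49 and 12.50 in untreated cells, 12.01 and 12.26 with salmeterol, 11.90 and 12.18 with low dexamethasone and 9.42 and 9.63 with both, and fell by 2.97 ± 0.123 (adjusted p = 4.67e-07) in the combination. With CGS-21680 and low dexamethasone it was 10.65 and 10.67, a fall of 1.84 ± 0.123 (adjusted p = 2.01e-05), and with high dexamethasone 11.66 and 11.69, a fall of 0.82 ± 0.123 (adjusted p = 0.00379). The 4 combination arrays were the lowest for MYC, and those with salmeterol lay below those with CGS-21680.

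MAF, known as an activator of CCND2, was 12.38 and 12.13 in untreated cells, 10.16 and 10.39 with salmeterol and low dexamethasone, and 10.61 and 11.40 with CGS-21680 and low dexamethasone. It fell by 1.98 ± 0.23 (adjusted p = 0.000274) and by 1.25 ± 0.23 (adjusted p = 0.0059), and was not called with any single treatment. The group means of CCND2, on 200953_s_at, were lowest with dexamethasone alone, and those of MAF in the combinations. The part of MAF in the levels of CCND2 was not tested. STAT3 rose by 1.07 ± 0.161 and MEN1, the menin gene, by 1.00 ± 0.205 with salmeterol and low dexamethasone, whereas FOXO3 fell by 0.60 ± 0.113 and IKZF3, an Ikaros family factor of B lineage cells, by 0.83 ± 0.163. Each of these held in all 21 alternatives run for it. MEN1 was also the 1 regulator called with low dexamethasone (0.87 ± 0.205, adjusted p = 0.0452), a call that held in 10 of 21 alternatives.

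Other genes of the G1 to S step were read from a list of 38, of which 34 could be tested. Neither agonist alone changed any of them by limma (5.97% and 0.656% of all genes were called), though 4 had an unadjusted p under 0.05 with salmeterol and 4 with CGS-21680, and at either dose dexamethasone alone changed 1 (4.66% of all genes at the low and 8.58% at the high dose), CDC25A, the phosphatase that activates CDK2. Its log2 level was 7.95 and 8.19 in untreated cells, 7.27 and 7.19 with low dexamethasone and a mean of 7.26 (SD 0.356, n = 2) with high dexamethasone, a fall of 0.84 ± 0.183 (adjusted p = 0.0341) and 0.81 ± 0.183 (adjusted p = 0.0267). Those calls held in 12 and 17 of 21 alternatives. With salmeterol and low dexamethasone 4 of the 34 rose and 3 fell, and with CGS-21680 and low dexamethasone 1 rose and 4 fell, with medians over the list of 0.15 and 0.09. Among all genes 24.6% and 15.8% were called in these comparisons, so neither share of the list was above the background.

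Among these, LIN37, a subunit of the complex that represses cell cycle genes in resting cells, rose by 1.17 ± 0.189 with salmeterol and low dexamethasone (adjusted p = 0.00172) and by 0.86 ± 0.189 with CGS-21680 and low dexamethasone (adjusted p = 0.0136), or by 0.59 and 0.43 when its probe sets were averaged. The second of those calls was lost without untreated replicate 2, without replicate 2 of the combination and with no expression filter. E2F2, an E2F factor that RB1 holds in check, was 9.81 and 10.07 in untreated cells and 8.87 and 9.03 with salmeterol and low dexamethasone, and fell by 0.99 ± 0.166 (adjusted p = 0.00214). CCNH, the cyclin of the CDK-activating kinase, rose by 0.85 ± 0.165 and CUL1, the cullin of the SCF ubiquitin ligase, fell by 0.53 ± 0.124 in the same comparison. The CUL1 call was lost without untreated replicate 2 or replicate 2 of the combination, while those of E2F2 and CCNH held in all 21 alternatives. CDKN1A, the p21 inhibitor, was 7.94 and 8.26 in untreated cells and 8.51 and 8.35 with salmeterol and low dexamethasone, and was called only against groups with 1 agent, for instance by 0.65 ± 0.15 against low dexamethasone (adjusted p = 0.0183, lost with no expression filter and without either low dexamethasone array or replicate 1 of the combination).

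**Figure D5:**
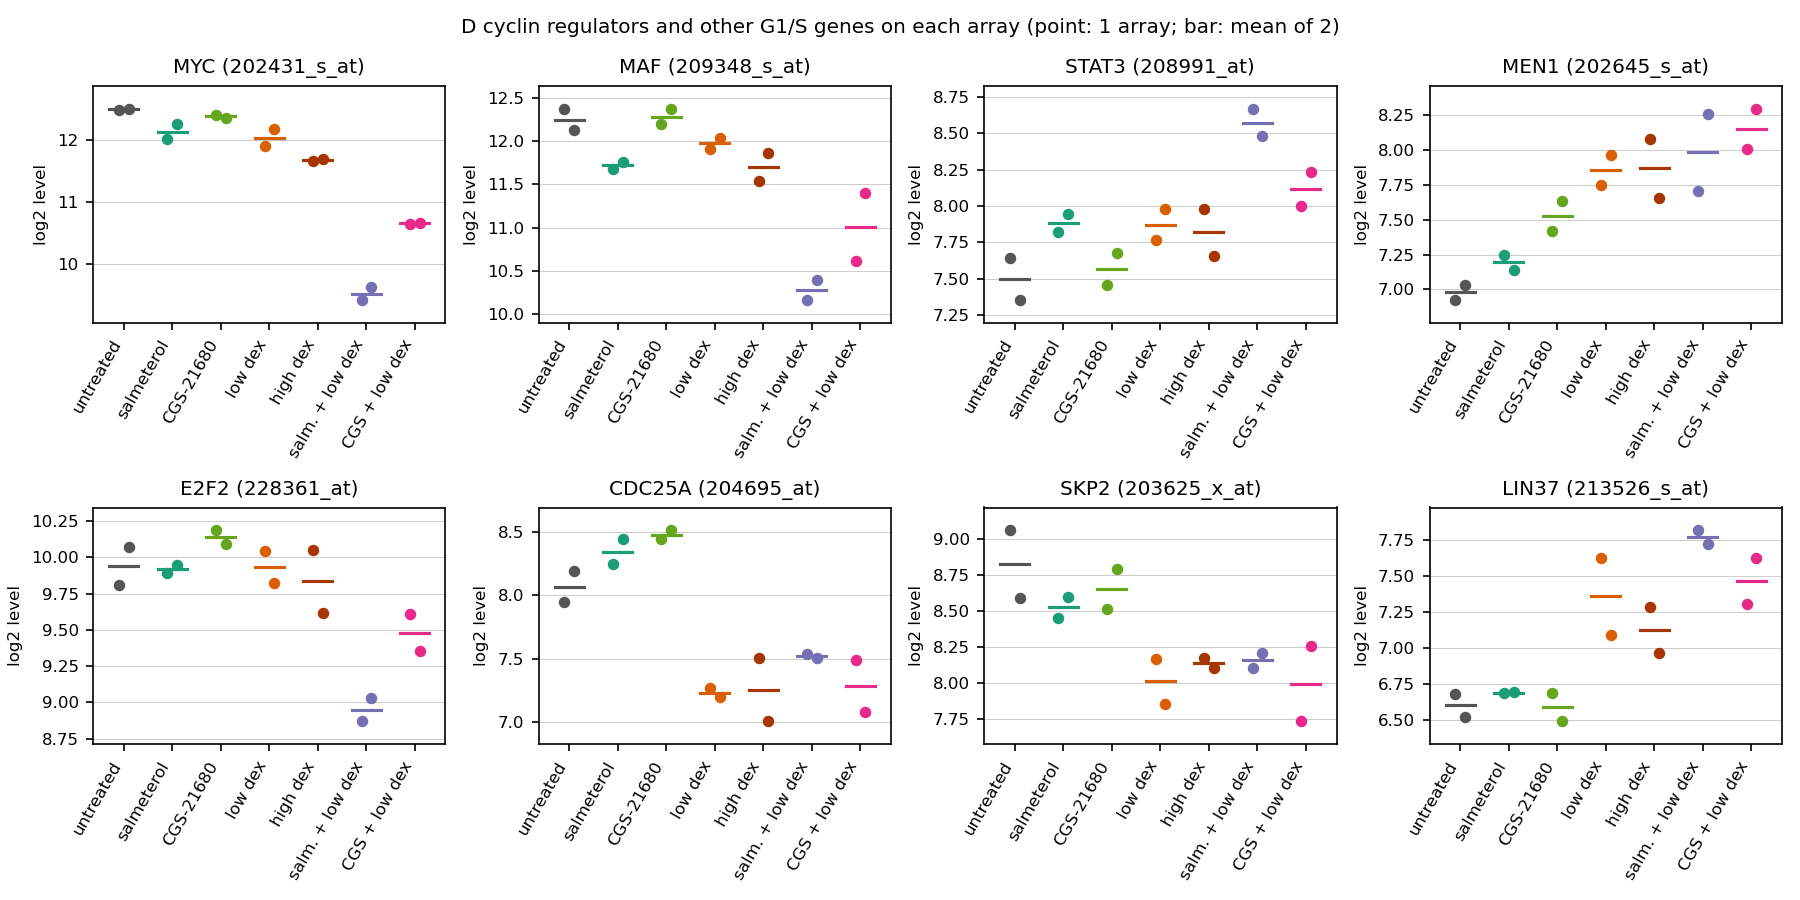
Log2 level on each array (point, with the mean of 2 as a bar) for 4 regulators of D cyclins and 4 other G1 to S genes in the 7 groups, each panel with its own y axis. MYC and MAF are lowest in the combinations (MYC at 9.42 and 9.63 with salmeterol and low dexamethasone), while all 8 arrays with dexamethasone lie below the other 6 for CDC25A.

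For each gene called against untreated cells, the genes whose levels ran most alike over the 14 arrays were found among 9282 others, as a description with no test, since the arrays share their treatments. CCND2 ran closest to PSME3 (Pearson r = 0.979), HSPD1 (0.966) and NINJ1 (0.958), and CCND3 to SULT1A1 (0.976), LAPTM5 (0.976) and INSR (0.969). CDK4 ran closest to NLRP7 (0.910), NCAPD3 (0.908) and MRM2 (0.898), and CDK6 to ADAM10 (0.954), IRF2 (0.919) and CSTB (0.918). CDKN1C ran closest to ITSN1 (0.932), NIT1 (0.914) and SYNJ1 (0.914), and RB1 to SEPSECS (0.949), ARHGAP1 (0.941) and RASSF8 (0.927). SEPSECS and RASSF8 had low levels, at most 5.25 and 4.65 in log2.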

How the data were processed

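Total RNA of MM1S cells was hybridised to an Affymetrix 3' expression array. The authors deposited an intensity for each of 54675 probe sets on every array. The submitters' processing notes name GCRMA, with settings and version not given in the sources used here. A linear, already normalized scale was inferred from the deposited intensities, which share a floor of 4.879. Log2 was taken with no pseudocount, and differences near the floor are compressed. Names come from the platform annotation, in which 41097 probe sets had 1 symbol, 1801 had several and 11777 were not listed. A probe set entered at a log2 level of at least 4 on at least 2 arrays, and the 1 with the highest mean stood for its gene. The linear model was fitted with lmFit, contrasts.fit and eBayes of limma 3.58.1 (R 4.3.3), with 7 residual degrees of freedom plus 2.3 from the prior, and was tested on simulated data. Errors are standard errors, intervals are 95%, and 17 comparisons were made.

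The genes, the lists and the tests were chosen with earlier results of these data known. From each list, the rule was to name at most 4 called genes per comparison, by smallest adjusted p. For the D cyclin regulators with salmeterol and low dexamethasone against untreated cells, all 6 called genes are named. The labels call replicates biological without saying how cultures were separated, so the p-values reflect only how far these samples spread, which may be technical. Precision is limited by the number of arrays, and an exact permutation test of 2 against 2 cannot go below p = 0.333. Replicate numbers did not meet the criterion for pairing, and the replicate block is an alternative. Others were further quantile normalization, other filters, the mean of a gene's probe sets, each probe set on its own, a variance trend, low levels raised to 4, and leaving out each array, for CDKN1C also with its probe set kept, which was added after seeing the data. Coordinates are given only for the RefSeq promoter, in its own build.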

Additional observations from a re-analysis of the deposited data

Results flagged for a closer look

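Results were picked out here because an agonist's effect differed between cells with and without low dexamethasone, by the interaction term of the limma model. None of the 8 tested D cyclin and brake genes met this. Of 65 tested genes of the related lists, 3 did for salmeterol (1.61% of all genes) and 1 for CGS-21680 (0.151% of all).

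MYC had an interaction of -2.16 ± 0.174 with salmeterol (adjusted p = 0.000537) and of -1.28 ± 0.174 with CGS-21680 (adjusted p = 0.0338). The salmeterol value held in all 21 alternatives, from -2.30 to -2.01. The CGS-21680 value ran from -1.42 to -1.13 and passed in 10 of the 21 alternatives. It was lost without either array of untreated, CGS-21680, high dexamethasone or either combination, and without low dexamethasone replicate 2.

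ZBTB16, a glucocorticoid response gene, had an interaction of 1.58 ± 0.324 with salmeterol (adjusted p = 0.0488). It passed the threshold in 5 of 20 alternatives and was 1.02 with low levels raised to 4. On all arrays without dexamethasone the log2 level of ZBTB16 was 2.44 to 2.47, near the floor of 2.29. It reached 4 only with high dexamethasone or in the combinations. An effect of salmeterol alone could hardly show there, so this interaction cannot be relied on. NR4A1, a cyclic AMP response gene, had an interaction of 0.80 ± 0.153 with salmeterol (adjusted p = 0.0382), which passed in 7 of 21 alternatives and was 0.42 when its probe sets were averaged (adjusted p = 0.314). Its log2 level was the same, 5.77, on untreated replicate 1 and both salmeterol arrays. An effect of salmeterol alone might not show at a repeated level, so the NR4A1 interaction cannot be relied on either.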

How the results depend on the processing

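For single genes, values were counted for pairs of a gene and a comparison called in at least 1 fit. Outside the fits with an array left out, 262 values kept their side of the threshold, 9 newly passed it and 16 no longer did. No value called in the full fit or in the alternative reversed its direction. These values do not include the fits of each probe set on its own. There, with salmeterol and low dexamethasone against untreated cells, 1 probe set of CCND2 was called higher and 1 lower. Of the counts of changed genes among the 8, that of CGS-21680 against untreated cells was 0 with the mean of the probe sets and 0 with no filter. With no filter, salmeterol with low dexamethasone changed 1 gene against low dexamethasone and 2 against salmeterol. With each probe set fitted on its own, CGS-21680 with low dexamethasone changed 1 gene against low dexamethasone, 1 against the salmeterol combination and 1 against high dexamethasone. With the mean of the probe sets, it changed 1 against low dexamethasone, and 1 gene passed the salmeterol interaction. Shares of all genes called under these settings, or with an array left out, are not given here. A loss among the genes described here thus cannot be told from a loss among all genes.

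With each array left out in turn, the count ran from 0 to 1 for salmeterol, 0 to 1 for CGS-21680, 1 to 2 for low dexamethasone, 1 to 3 for high dexamethasone, 3 to 6 for salmeterol with low dexamethasone and 2 to 3 for CGS-21680 with low dexamethasone, all against untreated cells. Against low dexamethasone it was 1 to 3 and 0 to 1 for the 2 combinations, against the agonist alone 2 to 5 and 2 to 5, and against high dexamethasone 1 to 4 and 0 to 0. It was 0 to 1 for the salmeterol interaction, 0 to 0 for that of CGS-21680, 0 to 0 between the doses of dexamethasone, 0 to 0 between the agonists and 0 to 1 between the combinations. An array left alone in its group was assumed to vary like the other groups.

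Replicate numbers were to count as pairing only if same-numbered arrays deviated together (r over 0.1) in every pair of groups. They did in 12 of 21 (range -0.173 to 0.255), among them all 6 pairs with low dexamethasone, a hint from the data and not the design, so the block is given as an alternative. With the replicate block, CCND2 passed for salmeterol with low dexamethasone against low dexamethasone (adjusted p = 0.0255). CDKN1C no longer did there (0.0518), nor RB1 against high dexamethasone (0.0543), where the count was 2 in place of 3. The counts of the other comparisons were the same in number.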
